A study of Homo sapiens with 6 samples.

Results

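The interferon-induced proteins with tetratricopeptide repeats, the IFIT family, were followed as 4 genes chosen by symbol, IFIT1, IFIT2, IFIT3 and IFIT5, out of 60664 genes in the count table. The rule itself uses gene names and no measured value, though the family was picked with earlier results of these data known. RNA was sequenced from U-2 OS, a human osteosarcoma cell line whose genotype is labelled polyploid, after transfection of control siRNA (siControl) or of siRNA against SFPQ (siSFPQ). SFPQ is an RNA- and DNA-binding protein of the nucleus and of paraspeckles. Each condition had 3 biological replicates of this one line, all cultures were transfected with siRNA at 30 nM, and no interferon, virus or other inducer is named in the labels, so the siControl cells are transfected cells and not untouched ones.

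IFIT proteins are built from helical tetratricopeptide repeats and are made in large amounts after a cell senses virus RNA or type I interferon. Interferons bind receptors whose JAK kinases activate STAT proteins, which join IRF9 and bind a DNA element, the interferon-stimulated response element, in front of the IFIT genes; IRF3, activated by the RNA and DNA sensors, can switch on some of the same genes without interferon. IFIT1 binds RNA whose cap lacks 2′-O methylation and blocks its translation, IFIT3 binds and stabilises IFIT1, IFIT2 forms complexes with both, and IFIT5 binds RNA with a 5′ phosphate.

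All 4 genes lie on the plus strand of chromosome 10 (GENCODE 44, GRCh38). IFIT2 (ENSG00000119922) spans 89283694 to 89309271, IFIT3 (ENSG00000119917) spans 89327307 to 89377473, IFIT1 (ENSG00000185745) spans 89392546 to 89406487, and IFIT5 (ENSG00000152778) spans 89414568 to 89421605. The stretches just before their start sites are shown because the response element lies there. They come from RefSeq's promoter table (GRCh38.p14), which matched 3 of the 4 genes (IFIT1, IFIT3 and IFIT5) and gives 2 start sites for IFIT3. Each stretch runs 5′ to 3′ from 200 bases before the start through the first 10 bases from the start, and capitals mark every match to GAAANNGAAA on the minus strand, which reads TTTCNNTTTC as printed.
IFIT3 (upstream start), chr10:89327797-89328006, plus strand: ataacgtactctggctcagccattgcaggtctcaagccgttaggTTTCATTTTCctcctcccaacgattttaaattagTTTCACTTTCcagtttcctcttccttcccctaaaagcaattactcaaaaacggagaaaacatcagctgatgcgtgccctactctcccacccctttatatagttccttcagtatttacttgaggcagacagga
IFIT3 (downstream start), chr10:89332329-89332538, plus strand: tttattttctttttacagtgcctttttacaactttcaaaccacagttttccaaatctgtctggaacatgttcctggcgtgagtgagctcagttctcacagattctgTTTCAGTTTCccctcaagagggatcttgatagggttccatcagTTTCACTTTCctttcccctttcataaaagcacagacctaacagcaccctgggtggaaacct
IFIT1, chr10:89392423-89392632, plus strand: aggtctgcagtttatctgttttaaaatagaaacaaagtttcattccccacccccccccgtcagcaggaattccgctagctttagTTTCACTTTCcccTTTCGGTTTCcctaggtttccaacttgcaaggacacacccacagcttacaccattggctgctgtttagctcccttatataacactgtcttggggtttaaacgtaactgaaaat
IFIT5, chr10:89414368-89414577, plus strand: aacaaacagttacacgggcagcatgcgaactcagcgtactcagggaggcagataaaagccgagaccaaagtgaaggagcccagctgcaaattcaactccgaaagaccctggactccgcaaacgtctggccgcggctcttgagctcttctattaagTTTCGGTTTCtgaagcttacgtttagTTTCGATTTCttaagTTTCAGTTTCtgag

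Each of the 4 printed stretches held at least 2 matches. In IFIT1 the matches began 116 and 103 bases before the start. At the upstream start of IFIT3 they began 156 and 122 bases before it, and at the downstream start 94 and 51 bases before it. In IFIT5 they began 45, 19 and 4 bases before the start, so the last one ran across it. All 9 matches were on the minus strand. Over both strands of all 35116 promoters in the table, each 300 bases long, 3.57% held at least 1 match, 0.259% at least 2 and 0.0370% at least 3, with overlapping matches counted separately. IFIT1B, a related gene between IFIT3 and IFIT1, had no match in this window. A match is a run of letters and does not show that a factor bound there.

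The counts summed to between 43469321 and 47119203 per library. The counts of SFPQ itself were 22338, 23139 and 21753 in the siControl libraries and 3140, 3863 and 3151 in siSFPQ, a 6.65-fold lower level in edgeR's fit (log2 fold change −2.73, SE 0.0498). The osteoblast genes RUNX2, COL1A1 and ALPL were among the 4 of 8 listed markers over 1 CPM (counts scaled to a common library total), and SP7, IBSP and BGLAP were near 0. The summed level of those 8 was 2888 to 3162 CPM in siControl and 2323 to 2385 in siSFPQ. The 8 leukocyte markers summed to 1.05 to 1.16 CPM in siControl and 1.09 to 1.49 in siSFPQ, with none over 1 CPM. Epithelial markers summed to 5.54 to 7.59 and 6.17 to 6.92 CPM (2 of 4 over 1 CPM), and endothelial markers to 4.25 to 5.49 and 6.53 to 7.33 CPM (1 of 3). The part of these shifts in the IFIT results was not tested.

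Normalized counts are counts brought to a common effective library size (TMM). All 4 IFIT genes were higher in siSFPQ cells, IFIT3 by 10.6-fold, IFIT2 by 9.39-fold, IFIT1 by 1.95-fold and IFIT5 by 1.36-fold. Each passed an adjusted p of 0.05 in the quasi-likelihood test of edgeR, adjusted by Benjamini-Hochberg over 29022 genes, as did 22.4% of all genes tested in the same direction and 22.1% in the other. In the fit of protein-coding genes only, 4967 of 16477 rose and 5121 fell, which are larger shares. IFIT2 and IFIT3 also passed a log2 fold change of 1.5, which 5.54% of genes did upwards together with the adjusted p. In all 4 the lowest siSFPQ library lay above the highest siControl library, as in 26.9% of genes tested. A rise of 1 of these genes by the adjusted p alone was therefore common in this comparison, and the size of the change in IFIT2 and IFIT3 was not: among 12958 protein-coding genes with a mean of at least 1 CPM, IFIT3 ranked 11 and IFIT2 ranked 12 by log2 fold change, IFIT1 ranked 489 and IFIT5 ranked 1700. In bulk RNA, a change in the share of cells that express a gene and a change in the RNA per cell cannot be told apart.

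IFIT3, the partner that stabilises IFIT1, had 282, 305 and 287 counts in siControl and 2921, 2912 and 3431 in siSFPQ. The 2 conditions stood far apart, and the lowest siSFPQ library was 9.34 times the highest siControl library after normalization. Normalized counts rose from 292 ± 11.8 to 3082 ± 274 (SD, n = 3 each), which is a log2 fold change of 3.40 (SE 0.0683, edgeR adjusted p = 8.46e-29).

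IFIT2, which forms complexes with IFIT1 and IFIT3, had 278, 167 and 202 counts in siControl and 1927, 2060 and 2114 in siSFPQ. It was the most variable of the 4 in siControl cells, where replicate 1 was highest and the coefficient of variation was 26.4%, while its siSFPQ libraries lay close together. Normalized counts rose from 216 ± 57.0 to 2029 ± 50.3 (SD, n = 3 each), which is a log2 fold change of 3.23 (SE 0.0921, edgeR adjusted p = 1.14e-24). Without siControl replicate 1 the log2 fold change of IFIT2 was 3.46 and without siControl replicate 2 it was 3.08.

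IFIT1, the sensor of caps without 2′-O methylation, had 878, 902 and 929 counts in siControl and 1719, 1714 and 1865 in siSFPQ. Both conditions were tight, and the lowest siSFPQ library was 1.80 times the highest siControl library after normalization. Normalized counts rose from 904 ± 26.0 to 1763 ± 81.6 (SD, n = 3 each), which is a log2 fold change of 0.96 (SE 0.0571, edgeR adjusted p = 6.71e-16).

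IFIT5, the member that binds 5′-phosphate RNA, had 1141, 1083 and 1086 counts in siControl and 1367, 1548 and 1597 in siSFPQ. Its siSFPQ replicate 1 was the library nearest to the siControl range, 1.23 times the highest siControl library after normalization. Normalized counts rose from 1105 ± 33.2 to 1499.9 ± 83.6 (SD, n = 3 each), which is a log2 fold change of 0.44 (SE 0.0577, edgeR adjusted p = 8.27e-08). The median log2 fold change of all genes tested was 0.02, so each of the 4 values lies above the middle of the table.

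**Figure D1:**
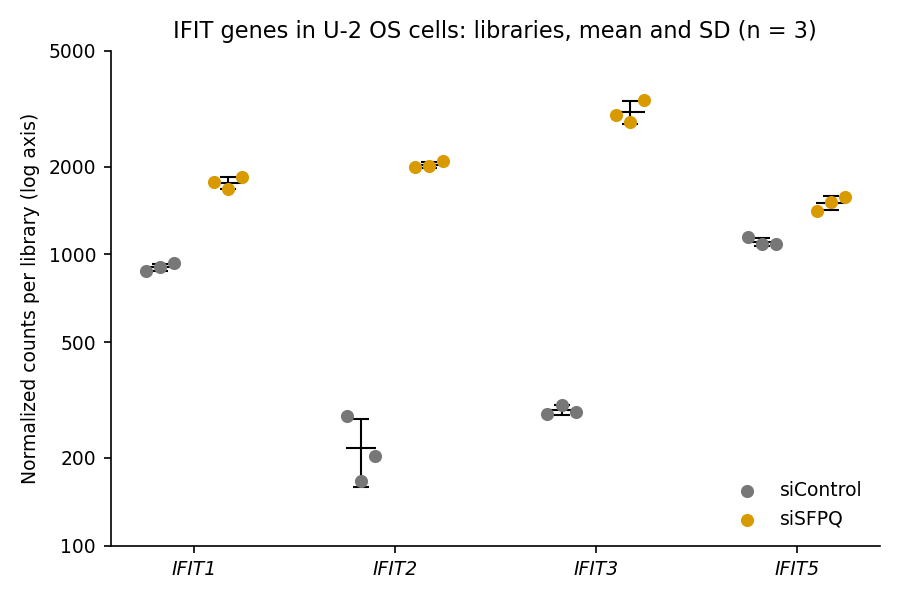
Normalized read counts (log axis) of each IFIT gene in the 3 siControl and 3 siSFPQ libraries; points are libraries and bars are condition means with SD. The conditions do not overlap in any of the 4 genes, and the gap is widest for IFIT3 (292 to 3082) and IFIT2 (216 to 2029) and narrowest for IFIT5 (1105 to 1499.9).

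Levels can be set against each other between genes only per length, here as counts per kilobase of exon scaled as CPM. In siControl cells IFIT5 was highest at 5.53 ± 0.166 and IFIT1 next at 4.28 ± 0.123 (SD, n = 3 each). IFIT3 at 1.26 ± 0.0507 and IFIT2 at 1.09 ± 0.288 followed, and these last 2 overlapped, since the 3 libraries of IFIT2 were at 1.41, 0.844 and 1.02. In siSFPQ cells IFIT3 and IFIT2 stood above IFIT1 and IFIT5, with IFIT3 at 13.3 ± 1.18, IFIT2 at 10.3 ± 0.254, IFIT1 at 8.35 ± 0.387 and IFIT5 at 7.50 ± 0.419. The lowest IFIT1 library, 7.95, lay just above the highest IFIT5 library, 7.88. With the length of the longest or of the canonical transcript in place of all exons these neighbours overlapped. With the canonical transcript IFIT2 and IFIT3 no longer did so in siControl. The order of the means was the same with each length, while the overlap of neighbours depended on the transcript assumed.

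Added over the 4 genes, the level per kilobase was 12.5, 11.9 and 12.1 in siControl replicates 1, 2 and 3 and 38.5, 38.0 and 41.7 in siSFPQ, or 3.24 times higher on average. The family's mix shifted at the same time. IFIT5 made up 45.5 ± 0.453% of the summed level in siControl and 19.1 ± 0.821% in siSFPQ, and IFIT1 made up 35.3 ± 1.69% and 21.2 ± 0.534% (SD, n = 3 each). IFIT3 went from 10.4 ± 0.689% to 33.7 ± 1.32%, and IFIT2 from 8.94 ± 2.11% to 26.0 ± 0.778%. With the canonical transcript as the length, the share of IFIT3 was 18.2% and 48.2%, and the sum was 3.98 times higher. IFIT1 and IFIT5 were thus most of the summed level in siControl and the smaller share in siSFPQ, although neither fell.

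**Figure D2:**
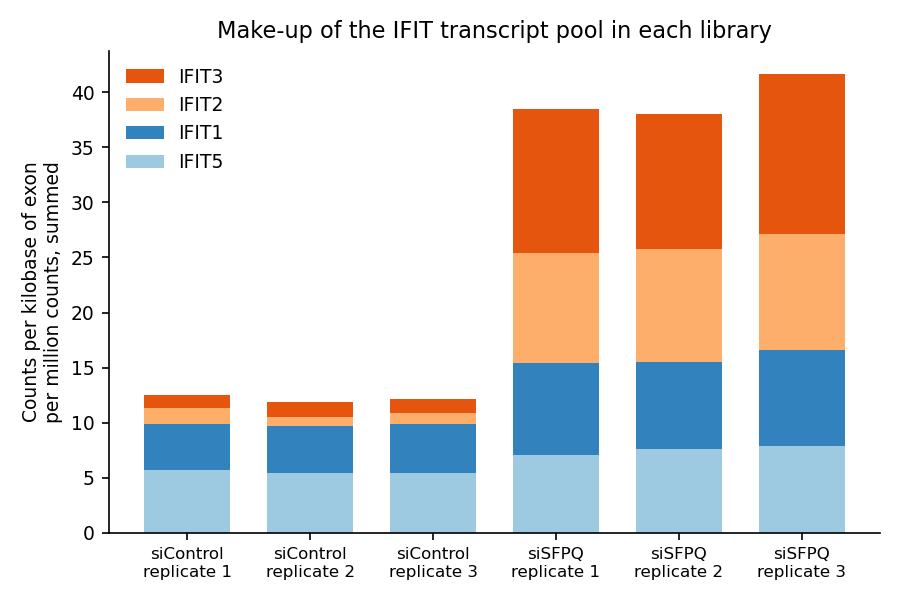
Stacked bars of the level of each IFIT gene (CPM per kilobase of exon) in each of the 6 libraries. The sum is 12.5, 11.9 and 12.1 in siControl and 38.5, 38.0 and 41.7 in siSFPQ, and IFIT3 and IFIT2 fill most of the added height.

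Ratios of 2 IFIT genes within a library need no scaling between libraries. The log2 ratio of IFIT3 to IFIT5 went from −1.92 ± 0.09 to 1.04 ± 0.11, a 7.76-fold shift, and that of IFIT2 to IFIT5 from −2.38 ± 0.33 to 0.44 ± 0.05, a 7.07-fold shift (SD, n = 3 each). The log2 ratio of IFIT1 to IFIT3 fell from 1.63 ± 0.07 to −0.80 ± 0.07, and that of IFIT1 to IFIT2 from 2.10 ± 0.40 to −0.20 ± 0.05. IFIT1, which binds RNA directly, was thus the more counted of each pair in siControl and the less counted in siSFPQ. The log2 ratio of IFIT1 to IFIT5 went from −0.29 ± 0.08 to 0.23 ± 0.09, a smaller shift of 1.44-fold. In these 5 pairs the libraries of the 2 conditions did not overlap, and the exact two-sided permutation test gave p = 0.10 for each, the smallest that 3 against 3 libraries allow (0.120 adjusted over the 6 pairs).

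IFIT2 and IFIT3 were the pair that kept its ratio within the spread. Their log2 ratio was −0.02, −0.87 and −0.51 in siControl and −0.60, −0.50 and −0.70 in siSFPQ. The difference of −0.13 had an exact two-sided permutation p = 0.800, and it turned to 0.09 without siControl replicate 1. The siControl spread of 0.42 (SD, n = 3), set by the counts of IFIT2, limits how small a change in this ratio could be seen.

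The transcripts of the 4 genes had little sequence in common. No run of 50 bases was shared between the transcripts of any 2 of them, and IFIT1 shared 38 of its 4613 such runs (0.824%) with IFIT1B, which had 0, 3 and 0 counts in siControl and 0, 1 and 0 in siSFPQ. IFIT2 shared 524 exon bases (12.1%) with ENSG00000232110, a same-strand long non-coding RNA with at most 2 counts in any library. On the opposite strand LIPA, the lysosomal acid lipase gene, shared 65 exon bases with IFIT2 and 94 with IFIT3. LIPA had 3455, 3520 and 3485 counts in siControl and 3725, 3767 and 4015 in siSFPQ, a log2 fold change of 0.13 (edgeR adjusted p = 0.00846). Genes whose exons are fully covered by exons of the other strand were at 0 counts in 767 of 794 cases, as a count that drops shared reads without regard to strand would leave them. IFIT1P1, a pseudogene on chromosome 13, had 1, 2 and 1 counts in siControl and 6, 2 and 3 in siSFPQ.

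Within 500 kb on either side of the cluster the annotation has 32 genes other than the 4, of which 15 were tested, 7 rose and 2 fell, beside shares of 22.4% and 22.1% over all genes tested. ACTA2, smooth muscle actin, had 120, 123 and 106 counts in siControl and 341, 336 and 345 in siSFPQ, a log2 fold change of 1.54 (edgeR adjusted p = 4.28e-13). ACTA2-AS1, which overlaps it on the other strand, had 9, 3 and 4 counts against 48, 45 and 50, a log2 fold change of 3.13 (edgeR adjusted p = 6.82e-08) close to that of IFIT2; with the strand setting not given, reads of this pair may not be separable. STAMBPL1, a deubiquitinase gene, rose by a log2 fold change of 1.11, FAS, the death receptor gene, by 0.83, and SLC16A12, a monocarboxylate transporter gene, by 1.47. ANKRD22 had 0 counts in all siControl libraries and 4, 4 and 2 in siSFPQ, at least 1.11-fold higher against a floor of 3 counts per library. Its call was lost without siControl replicate 3, and it had none with any siSFPQ library left out. PANK1, a pantothenate kinase gene, and KIF20B, a mitotic kinesin gene, each fell by 0.32 on the log2 scale. Of the genes nearest to the IFIT genes, SLC16A12, the next one past IFIT5, rose by more than IFIT1 and IFIT5, and LIPA, which spans the cluster on the other strand, by 0.13. IFIT1B, with at most 3 counts in a library, and IFIT6P, at 0 in all 6, were too low to show a change.

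The rest of the interferon pathway was read beside the IFIT genes, as counts of list members against the same background shares of 22.4% up and 22.1% down. The list members tested are protein-coding. In the fit of such genes alone larger shares passed, 4967 up and 5121 down of 16477. Interferon RNA was near 0: 14 of 21 interferon genes were at 0 counts in all libraries, IFNB1 among them, which allows up to 0.0690 CPM in the shallowest library. IFNE, the epithelial type I interferon, was the only one tested, with 2, 4 and 4 counts in siControl and 0 in each siSFPQ library, at least 1.11-fold lower; the rest had too few counts to be tested. The call of IFNE was lost in 9 of 13 alternatives. These limits cover counting error only.

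Of 6 receptor and kinase genes, 2 rose and 0 fell, with a median log2 fold change of −0.01. IFNLR1, a chain of the type III interferon receptor, rose by 1.12 on the log2 scale, at a mean of 8.61 CPM. IL10RB, its partner chain, rose by 1.14 but was low, at a mean of 0.786 CPM. Its counts were 17, 27 and 23 in siControl and 48, 54 and 47 in siSFPQ. IFNAR1, JAK1 and TYK2 had values of −0.03, −0.03 and −0.00. Of 7 transcription factors, 2 rose. IRF1 went from 326 to 649 normalized counts (log2 fold change 0.99, edgeR adjusted p = 5.02e-11) and IRF3 rose by 0.14, a call lost without siControl replicate 2 (edgeR adjusted p = 0.0842) or siSFPQ replicate 2 (0.0698). STAT2 at 0.03 and IRF9 at 0.31, which bind the response element together, and IRF7 at −1.17 did not pass the test (edgeR adjusted p = 0.632, 0.275 and 0.181). IRF9 was at 0.59 and past the threshold without siControl replicate 3, and IRF7 was at −1.66 and past it without siControl replicate 1. The counts of IRF7 were low, 2, 20 and 12 in siControl and 3, 6 and 6 in siSFPQ.

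Sensors and adaptors, which detect foreign RNA or DNA and pass the signal on, had 8 of 10 members that rose and 0 that fell, with a median of 0.65; 6 to 7 rose with a library left out. STING1, the adaptor of DNA sensing, went from 288 to 897 normalized counts (log2 fold change 1.64, edgeR adjusted p = 2.50e-17), and IKBKE, a kinase of IRF3, rose by 0.89. Among 7 negative regulators 2 rose and 3 fell. SOCS1, an inhibitor of JAK kinases, fell by 1.17 on the log2 scale (edgeR adjusted p = 3.41e-10) and PTPN2, a phosphatase of JAK and STAT proteins, fell by 1.14 (edgeR adjusted p = 2.79e-19). USP18, an interferon-induced brake on the receptor, was at −0.25 (edgeR adjusted p = 0.156), and at −0.40 and past the threshold without siSFPQ replicate 2.

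Of 12 other interferon-induced genes whose proteins act on RNA, 8 rose and 2 fell, 3 of them by more than 1.5, with a median of 0.31. SLFN5 went from 1844 to 6463 normalized counts (log2 fold change 1.81) and OASL, an oligoadenylate synthetase-like protein, from 317 to 1012 (log2 fold change 1.67), both less than IFIT2 and IFIT3 and more than IFIT1. Of 8 genes for enzymes of the RNA 5′ end, the feature that IFIT1 and IFIT5 read, 1 rose and 2 fell. RNGTT, the capping enzyme, went from 1695 to 781 normalized counts (log2 fold change −1.12, edgeR adjusted p = 3.69e-17), DUSP11, a phosphatase of 5′-triphosphate RNA, rose by 0.30, and the median was −0.08. Of 13 subunits of eIF3, the translation factor that IFIT1 and IFIT2 bind, 6 rose, EIF3D by 0.42 and EIF3G by 0.24, and 1 fell, with a median of 0.08. With library size alone as the scaling, 12 rose and 0 fell.

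Genes with the pattern most like each IFIT gene over the 6 libraries were taken as the nearest of 12958 protein-coding genes by the distance between log2 normalized counts centred on their mean. IFIT1 lay nearest to PARP10, a mono-ADP-ribosyltransferase gene (0.0492), HSPB8, a small heat shock protein gene (0.0642), and DGKA, a diacylglycerol kinase gene (0.0655). IFIT5 lay nearest to WDR35 (0.0747), NUP35 (0.0765) and PRKCD (0.0813). The large rises had fewer close matches: IFIT2 lay nearest to SLAMF9 (0.530), TNS4 (0.627) and IFIT3 (0.639), and IFIT3 to ESM1 (0.534), SLAMF9 (0.634) and ODAPH (0.635), with IFIT2 at rank 4. This distance follows the size of the change between the conditions above all. By Pearson's r in its place, 0 of the 3 genes named for IFIT1, IFIT2 and IFIT3 and 1 of the 3 for IFIT5 were named again, so likeness beyond the difference between conditions is not resolved by 6 libraries.

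The promoter matches printed above were set against the calls of the whole table. Of 599 tested genes with at least 1 GAAANNGAAA match, 31.1% rose and 4.84% rose past 1.5, against 26.3% and 3.36% of 14542 tested genes whose promoters had none. With the stricter motif (CT after the second GAAA) 36.7% of 49 genes rose and 12.2% rose past 1.5, and with the looser one (1 to 3 bases between the repeats) 27.1% of 1463 rose, against 26.5% and 26.4% of the genes without these motifs. IFIT1, IFIT3 and IFIT5 held each of these motifs and count among the genes that rose, 18 of 49 with the stricter one. IFIT3 is also 1 of the 6 past 1.5 there. The same 3 genes were among the 23 of 50 tested genes with at least 2 matches that rose. Number of matches did not order the IFIT genes: IFIT5, with 3, changed least (0.44), and IFIT3, with 2 at each start, changed most (3.40).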

How the data were processed

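RNA-seq of 6 U-2 OS libraries (3 siControl, 3 siSFPQ) was analysed from the table of raw counts per Ensembl gene that the authors deposited, made per the labels with FastQC, STAR 2.7.9a and the GRCh38 build. All 6 columns were matched to samples by name, which leaves 0 columns out. The strand setting of the counting is not given in the sources used here. Genes with at least 10 counts in total were tested in R 4.3.3 with edgeR 4.0.16 (TMM, quasi-likelihood test, no covariates, Benjamini-Hochberg over 29022 genes), after the script was tested on simulated data. Normalized counts are counts divided by effective library size, scaled to the mean library. Each standard error is the log2 fold change divided by the root of its test statistic. Ratios of IFIT genes used log2 of raw counts plus 0.5 and an exact permutation test over libraries. A total of 3 counts was the floor, 0.0637 to 0.0690 CPM.

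The IFIT genes, the 8 pathway lists, the markers and the rule for naming genes were chosen with earlier results of these data known. Named genes were the 4 IFIT genes, SFPQ, from each list the 2 largest changes past the adjusted p with a mean of at least 1 CPM, a fixed set (IFNB1, STAT2, IRF9, IRF3, IRF7, IRF1, USP18, STING1, IFIT1B and LIPA), the neighbours past the adjusted p and the 3 genes nearest to each IFIT gene; IFNE, IFNAR1, IL10RB, JAK1, TYK2, IFIT6P, IFIT1P1 and ENSG00000232110 were named after their values were seen, and 2 genes of the lists are not reported here. Positions and exon lengths come from GENCODE 44, which holds 60463 of the gene identifiers. Alternatives were another count filter or none, RLE or library size alone, DESeq2 1.42.0, a replicate block, protein-coding genes only, other gene lengths (the canonical transcript was chosen after seeing the data), another pseudocount, other motifs, another measure of likeness and each library left out. Replicates were checked for repeated libraries and differed by more than sampling noise.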

Additional observations from a re-analysis of the deposited data

How the results depend on the processing

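All 4 IFIT genes kept their direction and their call in the 7 other fits and in the 6 with a library left out, IFIT2 and IFIT3 past a log2 fold change of 1.5 in each. The other fits gave 0.95 to 1.03 for IFIT1, 3.22 to 3.29 for IFIT2, 3.39 to 3.46 for IFIT3 and 0.43 to 0.50 for IFIT5, and leaving out 1 library gave 0.94 to 0.98, 3.08 to 3.46, 3.34 to 3.44 and 0.41 to 0.50. With each condition's mean removed per gene, the log2 levels of same-numbered libraries correlated at −0.03, 0.07 and 0.04. Differently numbered libraries gave −0.07 to 0.03. The numbers thus gave no sign of pairing, which 3 libraries per condition cannot exclude. With a replicate block the log2 fold changes were 0.96, 3.24, 3.40 and 0.44, and 1419 genes rose past both thresholds. Genes higher past both thresholds numbered 1609 of 29022 tested, 967 of 21270 with filterByExpr and 581 of 16477 with protein-coding genes only. Genes lower numbered 1384 and, with protein-coding genes only, 830. Fewer genes were tested in these fits, and the share that was higher was smaller too. Interferon ligands that fell were 1, and 0 with filterByExpr, DESeq2, the replicate block and any 1 library left out. With a library left out, transcription factors that rose numbered 1 to 3 and those that fell 1 to 2, negative regulators that rose 1 to 2, and 1 with no filter; eIF3 subunits that rose and fell were 12 and 0 with library size alone. STAT2 turned to −0.00 without siControl replicate 2, and the difference in the IFIT2 to IFIT3 ratio ranged from −0.34 to 0.09 with a library left out. ANKRD22 lost its call under the replicate block and without siControl replicate 3. It also had no call with filterByExpr, with DESeq2 or with any siSFPQ library left out. Its counts, at most 4, are the limit. The levels per kilobase depend on the length taken: with the longest and the canonical transcript IFIT3 was at 1.59 and 2.67 in siControl and 16.8 and 28.2 in siSFPQ, IFIT5 at 5.97 and 6.0, then 8.10 and 8.14, IFIT2 at 12 and 13.1 in siSFPQ and, with the canonical, 1.39 in siControl, and IFIT1, with the canonical, 4.60 and 8.96. A stricter motif left 1 match at each IFIT3 start and 1 in IFIT1, and a looser one gave 4 at the downstream start of IFIT3. The planned identity between IFIT proteins was not run.

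An exact test of 3 against 3 libraries cannot go below p = 0.10. A full lack of overlap in a ratio is the same event as that p and adds nothing to it. The ratios therefore did not pass a test (exact permutation p = 0.120 adjusted), and the pairs share genes, so they are not independent. The replicates are cultures of 1 line, 1 siRNA treatment is labelled per condition, and time after transfection is not given in the sources used here. Counts of reads do not show which IFIT transcript was made, nor protein.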

Other observations

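Among the 50 tested genes whose RefSeq promoter held at least 2 matches to GAAANNGAAA, 23 rose (46.0%) and 6 fell (12%). Of all genes tested, with or without a RefSeq promoter, 22.4% rose and 22.1% fell. Nearer in kind are the 14542 tested genes whose promoters held no match, of which 26.3% rose. The median log2 fold change of the 50 was 0.24, and IFIT1, IFIT3 and IFIT5 are among the 23. Those named here were chosen after their values were seen. Past 1.5 upwards were, beside IFIT3, the RNA helicase gene DDX60 (2.26), IFI44L (1.98), RTP4 (1.94) and HERC5, the last with a mean of 0.0512 CPM, and STS, steroid sulfatase, fell by 1.60 on the log2 scale. ISG15, the ubiquitin-like modifier, was at 1.36 and TAP1, a peptide transporter of antigen presentation, at 1.15, both past the adjusted p of edgeR's quasi-likelihood test, while B2M was at −0.04 (edgeR adjusted p = 0.386). IFI27 at −0.41 and IFITM1 at 0.58, textbook interferon-induced genes with 2 matches each like IFIT1, did not pass it (edgeR adjusted p = 0.349 and 0.196). Their means were only 0.575 and 0.527 CPM, so a change in either could be missed.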
